A study of Mus musculus with 2 samples.

Results

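Sox9 and 9 genes of cartilage whose products are secreted or anchored in its matrix were followed cell by cell through the mouse temporomandibular joint (TMJ), the joint between the lower jaw and the skull. They were Sox9, Acan, Hapln1, Comp, Chad, Cilp, Cnmd, Cytl1, Matn3 and Snorc, 10 of the 32285 genes in the count matrices, and they were chosen by name for their role in cartilage. The study injected both TMJs of female C57BL/6 wild-type mice with 10 µL of PBS or of complete Freund's adjuvant (CFA), an oil emulsion of killed mycobacteria that provokes joint inflammation, at 5 mg/mL. Per the study's methods the mice were 8 weeks old at injection and the tissue was taken 3 weeks later; the labels give an age of 8-10 weeks. Condyle, disc, temporal bone, muscle and ligament of 3 mice were collected, CD45-positive immune cells were depleted with magnetic beads, and 1 droplet single-cell RNA library was made per condition.

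With 1 library per condition there was no replicate and no test between PBS and CFA. A difference between the libraries carries mouse, dissection, digestion and library together, and these cannot be told apart from the treatment. All intervals are 95% intervals for counting error only: exact Poisson for sums of unique molecular identifiers (UMIs), exact Clopper-Pearson for shares of cells. Barcodes with at least 500 genes, at most 10% mitochondrial UMIs and at most 1% hemoglobin UMIs were kept, which left 2667 PBS cells with 27201994 UMIs (median 7022 per cell) and 4014 CFA cells with 44432717 UMIs (median 6509.5). The hemoglobin limit alone removed 3178 PBS and 339 CFA barcodes. The libraries shared 10 barcode sequences, of which 2 were among the kept cells.

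Cartilage resists compression because its collagen fibrils trap a gel of aggrecan, a proteoglycan so heavily sulfated that it holds water. Aggrecan monomers hang on hyaluronan through a link protein, and a set of smaller proteins (cartilage oligomeric matrix protein, matrilins, chondroadherin) ties collagen to the gel and to the cell surface. SOX9 is the transcription factor that commits cells to the cartilage lineage and switches on type II collagen and aggrecan. The TMJ differs from most joints in that its condyle is covered by fibrocartilage, which holds type I beside type II collagen.

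The promoters of Acan, Chad and Cytl1 are shown because these genes stand for the patterns described here: a gene of all cartilage-like cells, a gene shared with tendon-like cells, and a gene found almost wholly in 1 small group of PBS cells. Each is the 250 bases before the RefSeq start (build GRCm38.p6, plus strand, 5′ to 3′), with the motif TATAAA in capitals where it occurs. Acan is at chr7:79052976-79053225, Chad at chr11:94564797-94565046 and Cytl1 at chr5:37735269-37735518.
Acan: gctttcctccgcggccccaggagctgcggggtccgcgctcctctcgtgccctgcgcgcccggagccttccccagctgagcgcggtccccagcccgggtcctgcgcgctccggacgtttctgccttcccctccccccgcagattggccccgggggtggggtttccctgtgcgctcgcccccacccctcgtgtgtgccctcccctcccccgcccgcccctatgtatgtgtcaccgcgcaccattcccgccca
Chad: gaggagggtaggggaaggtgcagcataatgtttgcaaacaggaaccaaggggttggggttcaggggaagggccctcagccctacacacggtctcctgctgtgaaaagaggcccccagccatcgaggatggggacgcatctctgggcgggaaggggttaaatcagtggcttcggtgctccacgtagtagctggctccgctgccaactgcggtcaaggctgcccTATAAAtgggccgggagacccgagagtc
Cytl1: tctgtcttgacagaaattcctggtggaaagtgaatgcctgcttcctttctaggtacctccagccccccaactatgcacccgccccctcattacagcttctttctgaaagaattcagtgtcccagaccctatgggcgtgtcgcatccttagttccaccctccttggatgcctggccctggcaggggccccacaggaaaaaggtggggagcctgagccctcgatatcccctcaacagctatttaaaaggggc

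Promoters of 7 of the 10 genes were at hand; those of Sox9, Comp and Snorc were not. The 3 printed differ in base composition: 74.4% G or C for Acan, 60.4% for Chad and 54.8% for Cytl1, beside a median of 52.4% over 32851 mouse promoters (lower and upper quartile 45.2% and 61.2%). The SOX-type motifs ACAAAG and ACAATG, searched on both strands, were in 0 of the 7 promoters and in 25.2% of all promoters. TATAAA was in 1 of 7, Chad, 28 bases before the start, and in 12.4% of all promoters. These are matches of letters within 250 bases and say nothing of enhancers elsewhere.

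Cells were clustered without the 10 genes and named from marker lists that did not hold them. Of 34 clusters, 27 were named, falling into 15 classes, and 1 was named chondrocyte-like: 61 PBS cells (2.29% of the library) and 106 CFA cells (2.64%). It met 6 of 8 chondrocyte markers, Col2a1, Col9a1, Col9a2, Col9a3, Col11a1 and Col11a2, the chains of types II, IX and XI collagen. Matn1 and Mia did not meet the rule. Ibsp, a bone matrix gene, and Panx3 also led the cluster.

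The chondrocyte markers were held by only some of its cells. Counting for each cell how many of the 8 markers had a UMI, 20 PBS cells held 5 or more, 5 held 3 or 4 and 36 held 0 to 2. In CFA 34 cells held 5 or more, 4 held 3 or 4 and 68 held 0 to 2. The share with 5 or more was 32.8% (21.3 to 46.0) in PBS and 32.1% (23.3 to 41.8) in CFA. A threshold of 5 markers, chosen after these counts were seen, divides the cells in what follows. It is a range of a score and not a cell type, and 6 PBS and 5 CFA cells sat exactly at 5. The cells with 5 or more markers were also deeper, with a median of 30216 UMIs in PBS against 18366 in the cells below 5, and 32459.5 against 11574.5 in CFA.

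**Figure D1:**
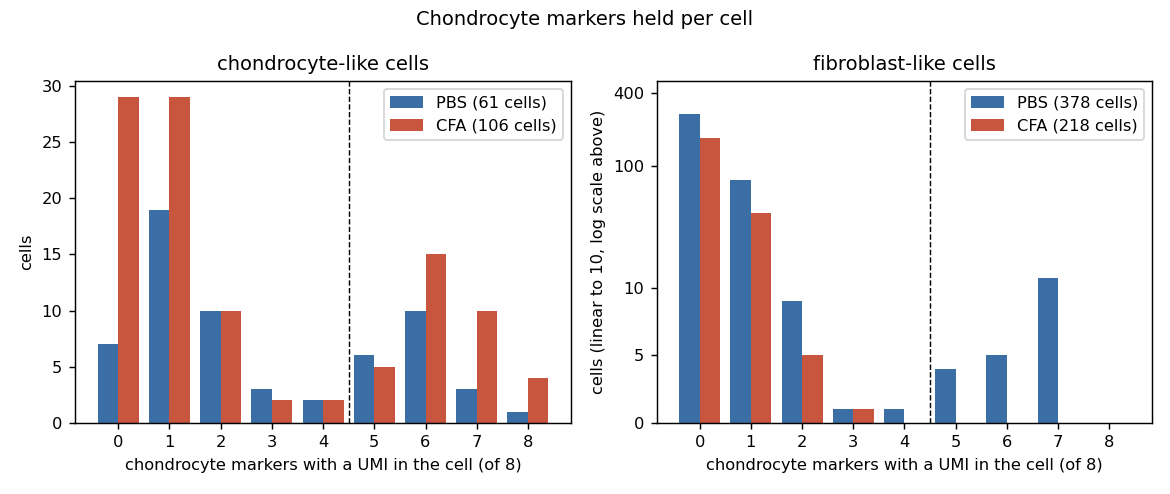
Number of cells (vertical axis; linear at left, linear to 10 and logarithmic above at right) holding 0 to 8 chondrocyte markers (horizontal axis) in PBS (blue) and CFA (red), for chondrocyte-like cells (left) and fibroblast-like cells (right); the dashed line is the threshold of 5. Both chondrocyte-like panels have few cells at 3 and 4 markers, and 21 PBS but 0 CFA fibroblast-like cells lie right of the line.

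Another 21 PBS cells with 5 or more chondrocyte markers lay outside the chondrocyte-like cluster, in a fibroblast-like one (5.56% of 378 fibroblast-like PBS cells, 3.47 to 8.37). No CFA fibroblast-like cell had them, 0 of 218, which allows a share of up to 1.38%. Where these 21 cells fell depended on the clustering. They were fibroblast-like at the settings used, at a resolution of 0.8 and with at least 1000 genes per cell. All 21 were chondrocyte-like when the 10 genes took part in the clustering, and 16 of 21 with classes given cell by cell without clusters. All 21 were tenocyte-like without integration. With 50 principal components 19 of 21 lay in unnamed clusters, with up to 20% mitochondrial UMIs 20, and without the hemoglobin limit 21. The name fibroblast-like is kept for them below only to say where they were counted. A further 7 cells with 5 or more chondrocyte markers lay elsewhere: 1 tenocyte-like and 1 Schwann-like cell in PBS, and 5 CFA cells in an unnamed cluster led by Plppr1 and Dok6.

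Levels below are CPM, the gene's UMIs over all UMIs of the cells named, scaled to counts-per-million. Sox9, the regulator of the set, was highest in chondrocyte-like cells in both libraries but far from limited to them. Sox9 (chromosome 11, 112782224 to 112787760, plus strand, in the GENCODE vM21 annotation of GRCm38) stood at 357 CPM (328 to 389) in PBS chondrocyte-like cells and at 480 (451 to 511) in CFA, a CFA to PBS ratio of 1.34 (1.21 to 1.49). Sox9 UMIs were seen in 85.2% (PBS) and 86.8% (CFA) of these cells. Among the named classes the next was fibroblast-like in PBS at 118 and tenocyte-like in CFA at 66.1, and neither interval overlapped that of the chondrocyte-like cells. In CFA the order below was not resolved, since the intervals of tenocyte-like, fibroblast-like (55.6) and osteoblast-like cells (43.1) overlapped their neighbours. An unnamed cluster led by Plppr1 and Dok6, described further on, lay above these with 178 in PBS and 311 in CFA. Only 36.9% of the Sox9 UMIs of the PBS cells lay in chondrocyte-like cells, and 55.9% in CFA.

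In chondrocyte-like cells most cells had Acan, 57 of 61 in PBS and 91 of 106 in CFA. Of 52 PBS cells with a Sox9 UMI, 51 also had Acan (98.1%), and of 92 CFA cells 82 did (89.1%). Over all cells of the class, which include these, the shares were 93.4% and 85.8%. The few cells without Sox9 thus had Acan less often, a difference that was not tested. In tenocyte-like cells the share of cells with Sox9 that had Acan was 37.5% of 48 in PBS and 38.5% of 39 in CFA. In satellite cell-like cells, the stem cells of muscle, it was 0 of 8 and 0 of 11, and the cells with Sox9 there held none of the other 9 genes. The median depths were 21814 and 13987 UMIs in chondrocyte-like and 6492 and 6884.5 in satellite cell-like cells.

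The aggregate itself came next. Acan (chromosome 7, 79053483 to 79115099, plus strand), which encodes the core protein of aggrecan, was at 1969.8 CPM (1899.8 to 2041.6) in PBS and 2101.2 (2040.0 to 2163.9) in CFA chondrocyte-like cells, a ratio of 1.07 (1.02 to 1.12). Hapln1 (chromosome 13, 89539796 to 89611652, plus strand), the link protein, was at 1855.2 (1787.3 to 1925.0) and 2075.8 (2014.8 to 2138.0), a ratio of 1.12 (1.07 to 1.17). Most UMIs of both genes were in the same cells: 79.5% and 92.7% of the Acan UMIs and 92.0% and 93.6% of the Hapln1 UMIs were chondrocyte-like. Outside them Acan was highest in tenocyte-like and PBS fibroblast-like cells, at 111 and 120 in PBS, with overlapping intervals. The fibroblast-like value came mostly from cells with 5 or more chondrocyte markers. In PBS fibroblast-like cells with fewer than 5 Acan was at 6.1, from 22 of the 463 fibroblast-like UMIs.

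Detection followed the same order. Acan was detected in 93.4% (PBS) and 85.8% (CFA) of chondrocyte-like cells, and in 2.12% and 1.25% of endothelial-like cells, which should lack it and stand here for background from free RNA. Endothelial-like cells were shallower, with medians of 5408 and 4422 UMIs. With every cell thinned to 1000 UMIs, Acan remained in 73.8% (60.9 to 84.2) (PBS) and 53 of 106 (CFA, 40.1% to 59.9%) chondrocyte-like cells against 0.404% and 0.385% of endothelial-like cells, and Hapln1 in 59.0% and 53 of 106 against 0.674% and 0.289%. Sox9, at 14.8% and 28.3% after thinning, was also above the endothelial-like 0.27% and 0.385%.

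Another 4 members bind collagen or join matrix parts. Comp (chromosome 8, 70373558 to 70382066, plus strand), cartilage oligomeric matrix protein, was at 4183.1 CPM (4080.9 to 4287.3) in PBS and 3945.7 (3861.5 to 4031.2) in CFA chondrocyte-like cells, a ratio of 0.943 (0.913 to 0.975). Matn3 (chromosome 12, 8947929 to 8972028, plus strand), an adaptor matrilin, was at 100 (84.8 to 117) and 167 (150 to 185), a ratio of 1.67 (1.37 to 2.03). Matn3 came from few cells, 9 in PBS and 17 in CFA, and 1 cell gave 55.3% of its PBS UMIs. Without the cell richest in the 10 genes in each library the Matn3 ratio was 3.38, past 2-fold.

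Chad (chromosome 11, 94565047 to 94569127, plus strand), chondroadherin, a leucine-rich repeat protein to which chondrocytes attach, was at 612 CPM (574 to 653) in PBS and 831 (793 to 871) in CFA, a ratio of 1.36 (1.25 to 1.47). It had a UMI in 29.5% and 34.0% of the chondrocyte-like cells, and 1 PBS cell held 42.7% of the PBS UMIs. Tenocyte-like cells also had Chad, 237 in PBS and 167 in CFA. In PBS 40.6% of its UMIs were fibroblast-like, more than the 36.7% in chondrocyte-like cells. Of these 1029 fibroblast-like UMIs only 162 lay in cells with fewer than 5 chondrocyte markers, at 44.9 CPM. In CFA 87.3% of the Chad UMIs were chondrocyte-like.

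Cilp (chromosome 9, 65265180 to 65280605, plus strand), cartilage intermediate layer protein, went the other way. It was highest in fibroblast-like cells in PBS, at 450, and in tenocyte-like cells in CFA, at 504. Chondrocyte-like cells had 192 CPM (170 to 215) in PBS and 141 (125 to 158) in CFA, a ratio of 0.734 (0.623 to 0.866), and held only 9.19% and 11.8% of its UMIs. These came from 7 of 61 and 17 of 106 cells, and a single cell gave 48.5% of the PBS UMIs. The ratio was past 2-fold in either direction with the processing, 0.304 without the hemoglobin limit and 2.73 when averaging over cells in place of summing UMIs.

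The last 3 members are small secreted or membrane proteins. Snorc (chromosome 1, 87470271 to 87475482, plus strand), a transmembrane proteoglycan of chondrocytes, was at 2102.1 CPM (2029.8 to 2176.3) in PBS and 2756 (2685.8 to 2827.6) in CFA chondrocyte-like cells, a ratio of 1.31 (1.26 to 1.37). It had a UMI in 39.3% and 35.8% of them. Of its UMIs 83.4% in PBS and 98.4% in CFA were chondrocyte-like, and 15.9% in PBS were fibroblast-like, at 158. Of these 609 fibroblast-like UMIs only 8 lay in cells with fewer than 5 chondrocyte markers, at 2.22 CPM. A single PBS cell held 35.3% of the PBS chondrocyte-like UMIs.

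Cnmd (chromosome 14, 79637690 to 79662170, minus strand), chondromodulin, a membrane glycoprotein that keeps vessels out of cartilage, was at 150 CPM (131 to 171) in PBS and 88.8 (76.5 to 102) in CFA, a ratio of 0.591 (0.485 to 0.72). These UMIs came from 7 and 11 cells, and without the cell richest in the 10 genes in each library the ratio was 0.987. Cytl1 (chromosome 5, 37735519 to 37739820, plus strand), a small secreted cytokine-like protein of cartilage, was nearly missing from the chondrocyte-like cluster, with 8 UMIs in 3 of 61 PBS cells (4.92%) and 7 UMIs in 3 of 106 CFA cells (2.83%). The intervals of these shares were 1.03% to 13.7% and 0.587% to 8.05%, and whether they are expression or free RNA was not tested.

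**Figure D2:**
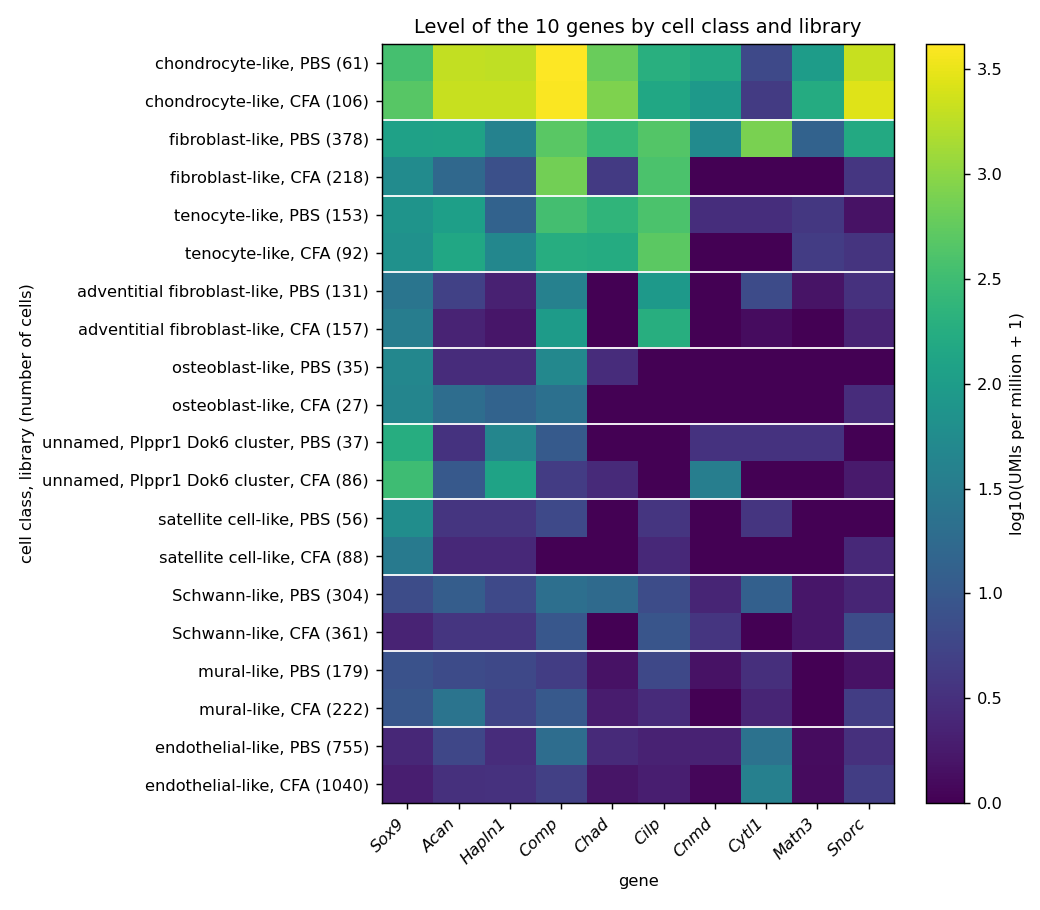
Colour gives log10 of CPM plus 1 for each gene (columns) in 10 cell classes of each library (rows, number of cells in brackets); colours are read down a column, since genes differ in length and capture. The chondrocyte-like rows are brightest in both libraries for 8 of the 10 genes, Cilp is brightest in fibroblast-like (PBS) and tenocyte-like (CFA) rows, and Cytl1 in the PBS fibroblast-like row at 771 and the CFA endothelial-like row at 37.0.

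Between conditions, none of the genes with enough UMIs passed 2-fold in the chondrocyte-like class as a whole. Of 9 genes with 20 or more UMIs over both libraries, 0 were 2-fold or more higher in CFA, where 6.72% of 10044 genes were, and 0 were 2-fold or more lower, where 6.31% were. For 9 genes such counts are near those shares and say nothing particular of the members. The median ratio of the 9 was 1.12, and of all genes 0.966. Ratios ran from 0.591 for Cnmd to 1.67 for Matn3. Taken over all kept cells instead, 4 of 10 were 2-fold or more lower, against 10.4% of 18099 genes, and 0 of 10 higher against 9.56%: Chad from 93.1 to 45.3 CPM (0.487), Cilp from 116 to 56.7 (0.487), Cnmd from 17.5 to 6.48 (0.371) and Cytl1 from 116 to 6.48 (0.0557, 0.0492 to 0.0628). A sum over all cells moves with how many cells of each class were captured, and fewer cells of a class and less RNA per cell cannot be told apart in it.

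The cells holding 5 or more chondrocyte markers carried most of the signal. In PBS, Acan was at 2854.5 in them and at 1174.9 in the cells below 5, a within-library ratio of 2.43 (2.25 to 2.63). In CFA the values were 3475.8 and 716, a ratio of 4.86 (4.49 to 5.26). Hapln1 differed 3.69-fold in PBS and 7.03-fold in CFA, Comp 9.63-fold and 9.53-fold, and Chad 12.2-fold and 22.3-fold. Sox9 differed least among Sox9, Acan, Hapln1, Comp, Chad, Snorc, Matn3 and Cnmd, 452 against 272 in PBS (1.66, 1.39 to 1.98) and 554 against 406 in CFA (1.37, 1.20 to 1.55).

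Snorc, Matn3 and Cnmd were nearly confined to the cells with 5 or more markers, with the exceptions given here. Snorc was at 4411 against 27.5 in PBS and at 5471.3 against 19 in CFA. Matn3 was at 210 against 1.25 in PBS, the latter a single UMI, and at 332 against 0 in CFA. Cnmd was at 317 in PBS and 177 in CFA, against 0 UMIs in both groups of cells below 5. Cilp reversed the order: 9.74 against 355 in PBS, 36.5-fold lower, and 0 against 282 in CFA, from 5 of 41 PBS and 17 of 72 CFA cells.

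The median cell below 5 markers had Sox9, Acan, Hapln1 and Comp, at 199, 1039.7, 775 and 137 CPM in PBS and 226, 349, 281 and 220 in CFA, and 0 Cilp UMIs in both libraries. These cells had almost no Col2a1, which is among the 8 markers that divide the cells, so this contrast follows in part from the division. Col2a1, the type II collagen gene, was at 1.25 CPM in them in PBS and 15.2 in CFA, against 23476.9 and 27454.4 in the cells with 5 or more. Their median cell had Col1a1 at 21209.4 CPM in PBS and 4903.5 in CFA, and Postn at 4899 and 1882, Postn being a gene of fibrous connective tissue. By the median over cells, 7 of 7 fibroblast markers were above 0 in both libraries, and 1 of 8 chondrocyte markers, a count that the division itself keeps low. In the cells with 5 or more markers it was 6 of 7 fibroblast and 6 of 8 chondrocyte markers in both, and 4 of 7 osteoblast markers.

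Condition ratios were also taken within each group of cells. In the cells with 5 or more markers 0 of 8 genes passed it in either direction (5.43% of 7545 genes higher, 7.41% lower), with a median of 1.23: Acan 1.22 (1.15 to 1.29), Hapln1 1.20 (1.14 to 1.27), Comp 0.898 (0.868 to 0.930), Snorc 1.24 (1.19 to 1.30) and Cnmd 0.557 (0.457 to 0.679). Cilp had 7 UMIs there in PBS and 0 in CFA, too few for the count. In the cells below 5 it was 0 of 7 (9.02% of 8551 higher, 7.32% lower), with a median of 0.729. There Acan went from 1174.9 to 716 (0.609, 0.553 to 0.671) and Hapln1 from 816 to 516 (0.632, 0.563 to 0.709), while Sox9 went from 272 to 406 (1.49, 1.26 to 1.76). In the cells holding 0 to 2 markers 1 of 6 genes was lower (7.09% of 8148 genes) and 0 higher (9.24%), Chad from 117 to 42.8 (0.367, 0.245 to 0.542). Acan and Hapln1 thus lay above 1 in the cells with 5 or more markers and below 1 in the others, a difference that was not tested. Of the 34 CFA cells with 5 or more markers, 13 were among the 5% with the highest doublet scores, against 1 of 20 in PBS. The part of doublets in these ratios was not tested; without those cells the Comp ratio of the whole class was 0.768 and the Chad ratio 1.01.

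**Figure D3:**
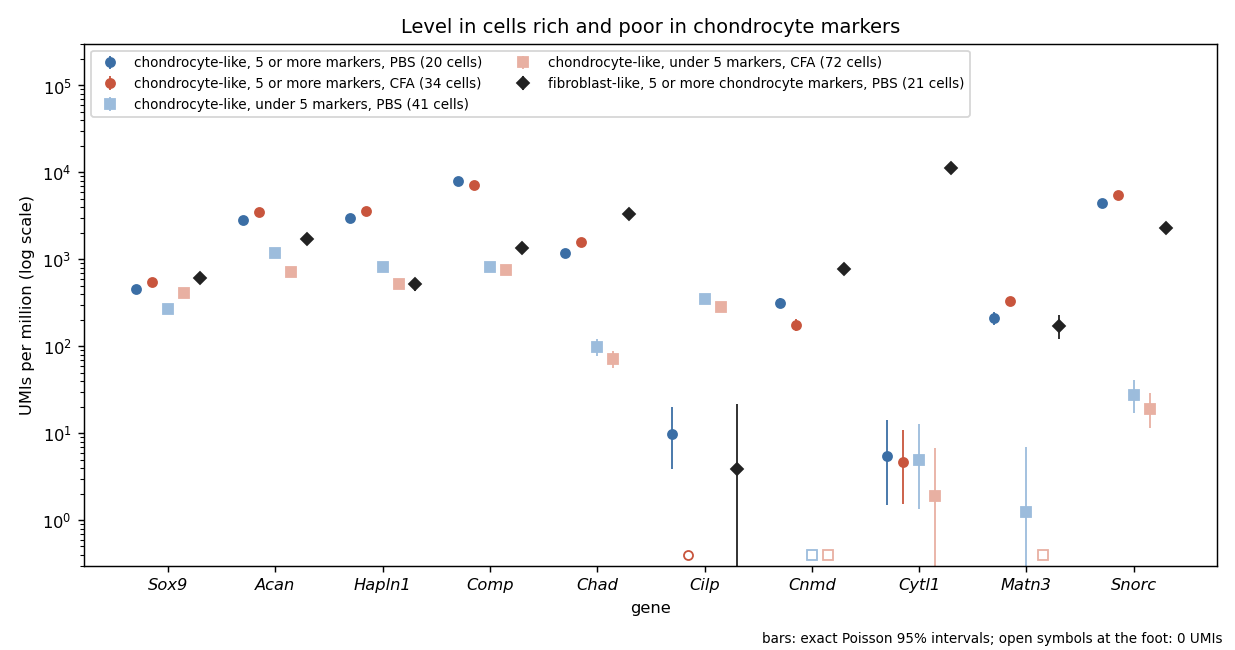
CPM (vertical axis, logarithmic) of each gene in chondrocyte-like cells with 5 or more markers (circles; 20 PBS cells blue, 34 CFA cells red), with fewer than 5 (squares; 41 PBS, 72 CFA) and in the 21 PBS fibroblast-like cells with 5 or more (black diamonds); bars are exact Poisson 95% intervals and open symbols stand for 0 UMIs. Chad, Snorc, Matn3 and Cnmd fall by more than 10-fold from circles to squares, Cilp rises, and Cytl1 is high only in the diamonds.

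The 21 PBS fibroblast-like cells differed from the chondrocyte-like cells in which of the 10 genes they held. Cytl1 was at 11115.1 CPM (10712.9 to 11528.7), with a UMI in 21 of 21 cells. The lowest cell had 84.5, the median cell 3842.5 and the highest 46381.3. A single cell held 41.7% of the UMIs, and without it the level was 7282.4. The 20 PBS chondrocyte-like cells with 5 or more markers had 5.56, from 4 UMIs, a ratio of 1997.6 (779 to 7336.5). In all, 94.0% of all Cytl1 UMIs of the PBS cells were fibroblast-like.

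Chad and Cnmd were also higher in these 21 cells than in the 20, Chad at 3346.1 against 1185.2 (2.82, 2.57 to 3.11) and Cnmd at 776 against 317 (2.45, 2.01 to 2.97). Chad had a UMI in 20 of 21 cells and Cnmd in 18. Sox9 was at 614 against 452 (1.36, 1.12 to 1.65). Matn3, at 170 and 210, had an interval of the ratio that included 1 (0.564 to 1.14).

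The aggregate genes Acan and Hapln1, and also Comp and Snorc, were lower in the 21 cells. Acan was at 1702 against 2854.5 (0.596, 0.537 to 0.661), Hapln1 at 521 against 3011.6 (0.173, 0.144 to 0.206), Comp at 1335.4 against 7923.5 (0.169, 0.151 to 0.188) and Snorc at 2319.5 against 4411 (0.526, 0.481 to 0.574). The median depth was 10988 UMIs in the 21 cells and 30216 in the 20. A median of 8 of the 10 genes was held by the 21 cells, and 6.5 by the 20. None of the 21 was among the 5% with the highest doublet scores.

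Other genes separated the same cells. Col2a1 was at 1435.7 in the 21 cells against 23476.9 in the 20, and Col1a1 at 1451.1 against 20507. Mia, a secreted cartilage protein, was at 1539.9 against 127, Eln, which encodes elastin, at 2253.9 against 41.7, and Prg4, the lubricin gene of joint surfaces, at 2508.6 against 2.78. Postn and Panx3 had 0 UMIs in the 21 cells and 1133.7 and 766 CPM in the 20. By the median over the 21 cells, Prg4 was at 513, Eln at 298, Wfdc2 at 247 and S100b at 300, and 7 of 8 chondrocyte, 5 of 7 fibroblast and 1 of 5 lining fibroblast markers were above 0. The chondrocyte count follows in part from picking the cells by those markers. The cells were given no name beyond their markers. Taking all cells with 5 or more chondrocyte markers together, 43 in PBS and 39 in CFA, 3 of 10 genes were 2-fold or more lower (9.72% of 8808 genes) and 0 higher (4.98%): Cytl1 from 2692.4 to 4.23 (0.00157), Cnmd from 400 to 163 (0.408) and Cilp from 73.5 to 0, from 79 UMIs. Of these 79 Cilp UMIs the 20 chondrocyte-like cells held 7 and the 21 fibroblast-like cells 1. The rest lay in the 1 tenocyte-like and 1 Schwann-like cell, so the Cilp difference is not one of the marker-rich cells at large.

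Fibroblast-like cells showed the largest differences between the libraries, and most of them lay in these 21 cells. There Cytl1 was at 771 CPM in 378 PBS cells and at 0 in 218 CFA cells, at least 661-fold lower against a floor of 3 UMIs in the CFA cells. Chad went from 266 to 3.11 (0.0117), Snorc from 158 to 2.72 (0.0173), Cnmd from 53.6 to 0 (at least 45.9-fold lower) and Matn3 from 12.9 to 0 (at least 11.1-fold lower). Acan went from 120 to 15.9 (0.133), Hapln1 from 39.6 to 6.61 (0.167) and Sox9 from 118 to 55.6 (0.47). In total 8 of 10 genes were 2-fold or more lower, against 4.66% of 12375 genes, and 0 higher, against 9.12%. The median ratio was 0.112 with the 3 genes at 0 in CFA set at their bounds.

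With the 21 cells left out, which was chosen after seeing them, 7 genes had enough UMIs and 2 of them were 2-fold or more lower (4.17% of 12243 genes) and 1 higher (9.28%). Cytl1 was still at 27.2 in PBS and 0 in CFA, at most 0.0429 of the PBS level, and Chad at 44.9 and 3.11 (0.0692, 0.0294 to 0.14). Acan was on the other side of 1, 6.1 to 15.9 (2.61, 1.52 to 4.6), and Sox9, at 82.7 and 55.6, no longer passed 2-fold (0.672, 0.547 to 0.823). Cnmd and Matn3 were left with 6 PBS UMIs each. The barcodes that the limits removed also held more of these UMIs in PBS than in CFA, 779 against 2 for Cytl1 and 516 against 14 for Chad, in 5004 and 1695 barcodes.

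**Figure D4:**
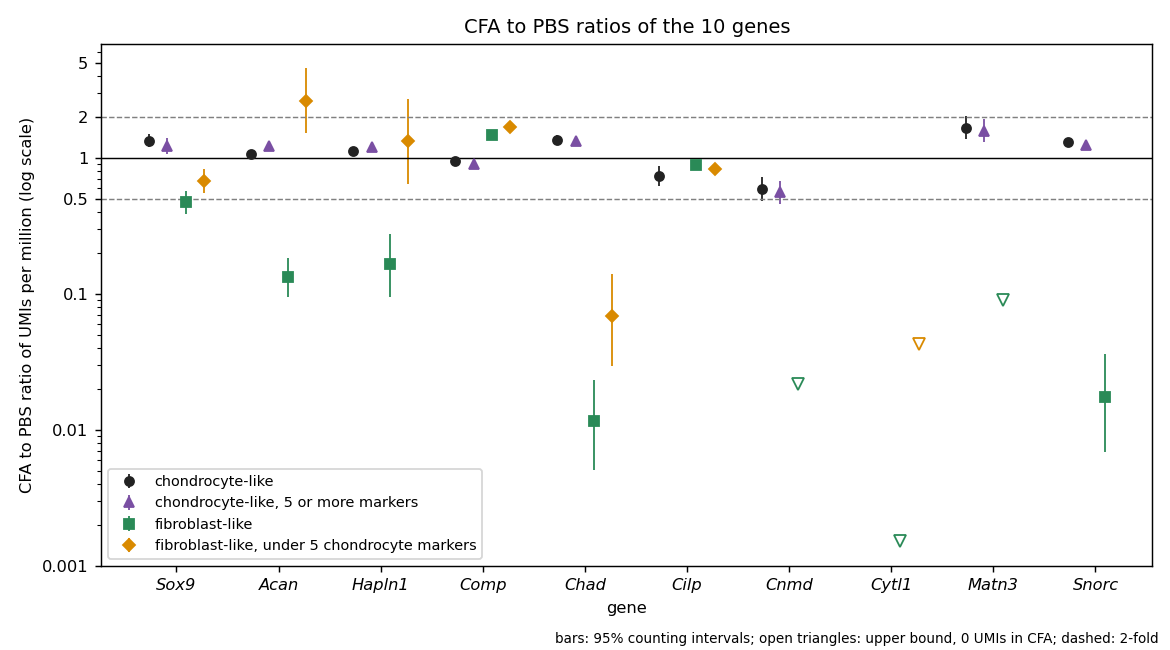
CFA to PBS ratio of CPM (vertical axis, logarithmic) for each gene in all chondrocyte-like cells (black circles), those with 5 or more markers (purple triangles), all fibroblast-like cells (green squares) and fibroblast-like cells with fewer than 5 chondrocyte markers (orange diamonds); bars are 95% counting intervals, open triangles are upper bounds with 0 UMIs in CFA, dashed lines mark 2-fold. The chondrocyte-like points lie between 0.557 and 1.67, and the green points for Chad (0.0117), Snorc (0.0173), Cnmd and Cytl1 lie lowest.

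Comp and Cilp were the members that did not pass 2-fold in fibroblast-like cells as a whole. In fibroblast-like cells Comp went from 490 to 719 (1.47, 1.38 to 1.57) and Cilp from 450 to 396 (0.88, 0.814 to 0.952). A fibroblast-like cluster carried most of both: Comp was at 681 in PBS and 1505.3 in CFA, past 2-fold, and Cilp at 696 and 689. In the other fibroblast-like cluster Comp went the other way, from 268 to 103, also past 2-fold, with Cilp at 164 and 166. That cluster held the 21 PBS cells with 5 or more chondrocyte markers, where Comp was at 1335.4. Leaving them out took the PBS fibroblast-like Comp UMIs from 1892 to 1546, where the cluster had 480. Most of its PBS Comp UMIs thus lay in the 21 cells, and its ratio without them was not taken. In adventitial fibroblast-like cells, those around vessels, Comp went from 37.9 to 96.7 (2.55, 1.95 to 3.38) and Cilp from 87.7 to 186 (2.12, 1.78 to 2.55), so 2 of 3 genes were 2-fold or more higher, against 7.82% of 10891 genes, and 0 lower, against 6.02%. Comp was detected in 10 of 131 and 39 of 157 cells, and 1 PBS cell held 41.8% of its PBS UMIs.

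Tenocyte-like cells, whose cluster met 4 of 6 tendon markers (Thbs4, Scx, Mkx and Fmod, but not Tnmd or Kera), held a part of the set. Of 6 genes with enough UMIs 1 was 2-fold or more higher (3.78% of 10401 genes) and 0 lower (5.42%). Hapln1 went from 12.7 to 45.8 (3.61, 2.22 to 6.01), detected in 17 of 153 and 27 of 92 cells. Comp went from 340 to 179 (0.527, 0.449 to 0.615), Chad from 237 to 167 (0.705), Acan from 111 to 141 (1.27) and Cilp from 388 to 504 (1.30). Osteoblast-like cells had Comp at 47.8 and 20.6 (0.431, 0.192 to 0.909), from 25 and 11 UMIs, and of 2 genes 1 was lower (8.54% of 6579) and 0 higher (4.73%). Satellite cell-like cells had only Sox9 in numbers, 57.9 and 29.4 (0.508, 0.257 to 0.993), which passed 2-fold in neither direction (8.45% of 6366 genes higher, 6.88% lower).

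An unnamed cluster led by Plppr1 and Dok6 was the second place of Sox9 in CFA. It held 37 PBS and 86 CFA cells and 20.5% of the CFA Sox9 UMIs (5.10% in PBS). Sox9 went from 178 to 311 CPM (1.75, 1.36 to 2.27) and had a UMI in 54.1% and 75.6% of the cells, but at 1000 UMIs per cell in 21.6% and 20.9%; the median depth was 6912 in PBS and 12533.5 in CFA. Hapln1 went from 45 to 124 (2.76, 1.71 to 4.72) and Cnmd from 2.37, a single UMI, to 34.2 (14.4, 2.45 to 584), so 2 of 3 genes were 2-fold or more higher, against 11.1% of 9346 genes, and 0 lower, against 8.1%. Acan was scarce, 1 UMI in PBS and 11 in CFA, and 12 of 20 PBS and 24 of 65 CFA cells with Sox9 held none of the other 9 genes.

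In vessels Cytl1 was confined to few cells. Endothelial-like cells had 21.9 CPM in PBS and 37.0 in CFA (1.69, 1.36 to 2.10), which was 88.5% of the CFA UMIs of the gene. Of the 255 CFA UMIs 248 were in 16 cells of 1 endothelial-like cluster, at 211, where PBS had 23.8; 1 cell held 39.5% of them. In PBS 78 of 129 UMIs were in 1 cell of another endothelial-like cluster. Of the 5 genes with enough UMIs in endothelial-like cells 2 were 2-fold or more lower, Comp (18.5 to 3.92) and Acan (4.93 to 2.18), against 5.94% of 12686 genes, and 0 higher, against 5.08%. These cells stood for background above, and 1 PBS cell held 13 of the 29 PBS Acan UMIs. Without the top cell of each library Acan was at 2.73 and 1.89, no longer 2-fold apart, and Comp at 11.1 and 3.65. The same step put Cytl1 at 8.69 in PBS and 22.9 in CFA, past 2-fold higher. In mural-like cells, the muscle and pericytes of vessel walls, 2 of 4 genes were higher (3.74% of 11090) and 0 lower (5.06%). These were Acan, from 5.64 to 23.6 (4.19, 2.16 to 8.89), and Comp, from 3.59 to 9.35 (2.61, 1.07 to 7.26). They rest on 11 and 53 Acan UMIs and on 7 and 21 Comp UMIs. In Schwann-like cells, the glia of nerves, 3 of 4 were lower (2.97% of 10495) and 0 higher (7.22%): Acan (0.246), Comp (0.426) and Chad (16.8 to 0). Their PBS levels rest on 16 Acan, 30 Comp and 25 Chad UMIs. Of 304 PBS Schwann-like cells 1, with 39400 UMIs, held 5 or more chondrocyte markers and 8 or more of the genes followed. The part of this cell in the 3 lower ratios was not tested.

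**Figure D5:**
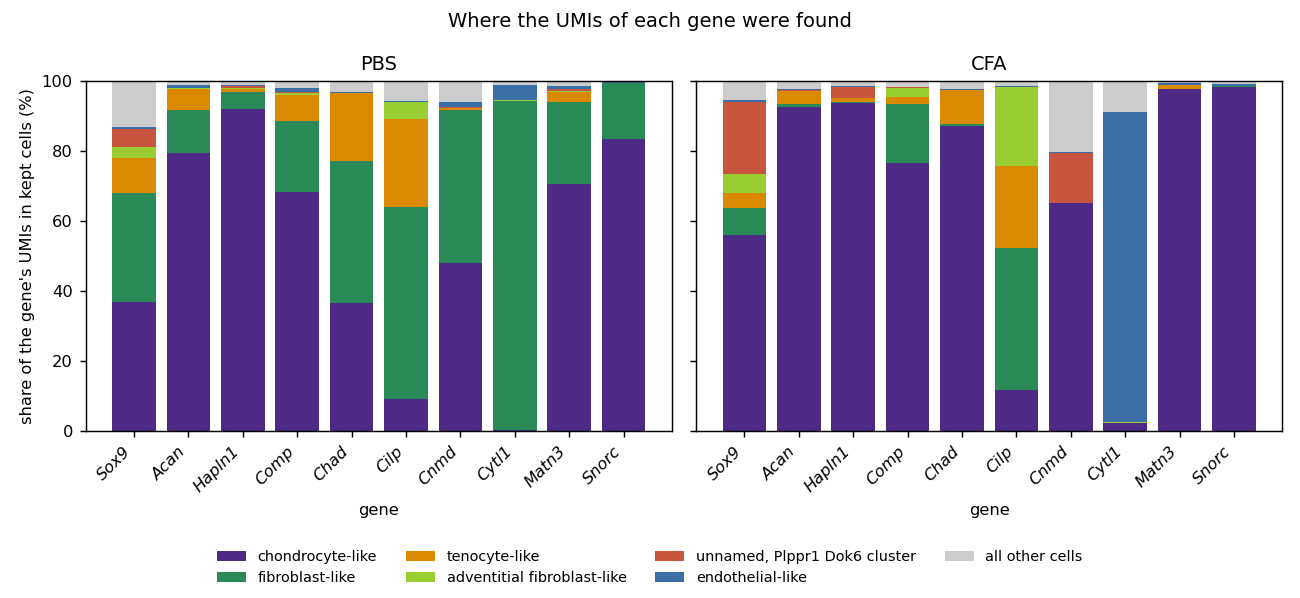
Share of each gene's UMIs in the kept cells (vertical axis, percent) that lay in 6 cell groups and in all other cells (colours), in PBS (left) and CFA (right). Over the 10 genes together 56.5% of PBS and 79.3% of CFA UMIs were chondrocyte-like and 30.9% and 9.17% fibroblast-like. Cytl1 was mostly fibroblast-like in PBS, out of 3168 UMIs, and mostly endothelial-like in CFA, out of only 288.

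Further genes of the cartilage programme, 39 genes from lists that were not used to name cells, were read in chondrocyte-like cells: 36 had enough UMIs, 5 were 2-fold or more higher in CFA, where 6.72% of all genes were, and 5 lower, where 6.31% were, with a median of 1.0. In the cells with 5 or more markers it was 4 higher (5.43% of all genes) and 4 lower (7.41%) of 33. The SOX partners Sox5, from 611 to 1217.5 (1.99, 1.85 to 2.15), and Sox6, from 870 to 1032.9 (1.19, 1.11 to 1.27), were with the 0 of 5 regulators that passed 2-fold. Of 8 genes that build and sulfate the glycosaminoglycan chains of aggrecan 0 passed, with ratios from 0.624 (Csgalnact1) to 1.39 (Chst3). The hyaluronan partners gave 1 lower gene of 4, Vcan (0.454).

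The proteases and their inhibitor gave 3 higher and 1 lower of 5 genes, and the hypertrophy genes 1 higher of 5. Over all 10044 genes of the class 6.72% were higher and 6.31% lower. Mmp13, the main collagenase of cartilage, went from 40.8 to 444 CPM (10.9, 8.4 to 14.3), Mmp3 from 17.8 to 42 (2.36, 1.52 to 3.78) and Timp3, a protease inhibitor, from 387 to 886 (2.29, 2.08 to 2.51). Adamts4, an aggrecanase, went the other way on 23 and 8 UMIs (0.249). In the cells with 5 or more markers 1 of 3 protease genes with enough UMIs was higher and 0 lower. The Mmp13 ratio there was 12.3, Timp3 no longer passed 2-fold (1.97, 1.78 to 2.2), Mmp3 had 12 UMIs in PBS and 0 in CFA, and Adamts4 had 4 and 1. Col10a1, the collagen of hypertrophic chondrocytes, went from 294 to 1053.2 (3.58, 3.23 to 3.97). In the cells with 5 or more markers it was at 622 and 2097.1, in 6 of 20 and 18 of 34 cells. Among the other matrix genes Matn4 was higher (3.61), and Clec3a (0.273), Cilp2 (0.308) and Ucma (0.359) were lower, 1 and 3 of 9 genes. Whether these differences follow from which cells of the class were captured was not tested.

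The genes whose levels followed the members most closely over 27 class and library points, among 13205 genes, are a description only, since the points share libraries and classes. For Acan it was Hapln1 (Pearson r = 0.961), for Hapln1 Matn3 (0.979), for Matn3 and Snorc Col9a2 (0.992 and 0.983) and for Cnmd Snorc (0.914). For Sox9 it was Irx5 (0.925), for Comp Rbp4 (0.961), for Chad Ecrg4 (0.929), for Cilp Itgbl1 (0.89) and for Cytl1 Corin (0.903).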

How the data were processed

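The authors deposited unnormalized UMI counts per gene and barcode for each library, made with Cell Ranger 7.0.1 on the mm10 reference; the counts here are those files. The labels and the methods differ on the digestion enzymes and the kit version. Cells were normalized per library (SCTransform 0.4.2), integrated and clustered in Seurat 5.3.0 with 200 principal components and a resolution of 1.5, after the study's methods, except that the 10 genes were taken out of the 3000 integration features. A cluster was named when at least 3 markers of a class had a UMI in 25% of its cells and were 2-fold above the other cells; markers among its 10 leading genes decided between classes, a rule revised after a first naming was seen. The 10 genes and all lists were chosen with earlier results of these data known; all 10 and every listed gene are reported or counted. Sums of UMIs were divided by the class total. Genes with 20 or more UMIs over both libraries entered the ratios, and past 2-fold counted as called. With 1 library per condition, no test was run. Scrublet (scanpy 1.11.5) marked 21 PBS and 2 CFA cells as doublets, too few to have worked, so none were removed. The ratio step was tested on simulated counts for 9991 genes: 100% of 200 genes changed 4-fold were called, and 1.97% of the others. The planted change lay past the 2-fold threshold, so this checks the calculation only. With 1 library per condition the 1.97% says nothing of differences between mice or libraries.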

Additional observations from a re-analysis of the deposited data

Results flagged for a closer look

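For Hapln1, Comp, Cnmd and Acan the CFA library was 2-fold or more above PBS in some class and 2-fold or more below it in another. These differences between classes were not tested, and each class is 1 library per condition. Hapln1 had a CFA to PBS ratio of 3.61 in tenocyte-like cells and 2.76 in the cluster led by Plppr1 and Dok6, against 0.167 in fibroblast-like cells. Comp had 2.55 in adventitial fibroblast-like and 0.431 in osteoblast-like cells, the latter from 25 and 11 UMIs. Cnmd had 14.4 in the Plppr1 and Dok6 cluster, against 1 UMI in PBS, and at most 0.0218 in fibroblast-like cells. The fibroblast-like values of Hapln1, Cnmd and Acan rest on the 21 PBS cells with 5 or more chondrocyte markers. Without them Hapln1 was at 1.32, Acan at 2.61, and Cnmd had 6 UMIs in PBS, too few for a ratio.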

How the results depend on the processing

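No paired analysis was possible because each condition has 1 library and no replicate number. At a resolution of 0.8 no cluster was chondrocyte-like, so that setting gives no value. Chondrocyte-like cells were the highest class for 8 of 10 genes, held 56.5% (PBS) and 79.3% (CFA) of the UMIs, and 90.2% and 83.0% of them had a UMI of the set at 1000 UMIs per cell. With 50 principal components the CFA UMI share was 78.1%. Without integration the shares were 41.9% and 70.0% of UMIs and 38.3% and 61.3% of cells, and 1 ratio was past 2-fold higher. With the 10 genes kept among the features they were 75.3% and 78.6%, and 96.4% and 90.6%, with 2 ratios lower. At up to 20% mitochondrial UMIs the CFA values were 78.4% and 91.0%. Without the hemoglobin limit the UMI shares were 46.9% and 77.6%, with 2 ratios lower. Classing each cell on its own gave 38.4% and 55.4%, 95.8% of CFA cells and 2 ratios lower. Leaving out the 5% highest Scrublet scores gave 57.1% and 74.6%. At 2000 UMIs per cell the cell shares were 98.3% and 94.3%. A mean over cells put 1 ratio higher (Cilp), and a 1.5-fold threshold 1 higher and 1 lower. The next 4 settings were chosen after seeing the data: joining the 21 fibroblast-like cells gave 74.8% in PBS and 2 ratios lower, taking only cells with 5 or more markers in any cluster 66.1% and 70.9%, 97.7% and 97.4% of cells and 3 ratios lower, taking chondrocyte-like cells with 5 or more markers 47.3% and 70.6%, with 100% of cells in both, and leaving out the top cell of each library 52.0% and 78.1% and 1 ratio higher (Matn3). Of the 9 ratios, Matn3 (1.51 to 3.38) and Snorc (1.12 to 1.82) were above 1 and Cnmd (0.368 to 0.987) below 1 in 14 of 14 alternatives, while Comp ran from 0.768 to 1.4, Chad from 0.822 to 2.46 and Cilp, with a value in 10 alternatives, from 0.304 (no hemoglobin limit) to 2.73 (mean over cells), past 2-fold in both directions. The causes were not tested. The 9 to 17 cells behind Matn3 and the 7 to 11 behind Cnmd limit what these libraries can show.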
